A study of Mus musculus with 16 samples.

Results

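Heads of mouse embryos at embryonic day 13.5 (E13.5) were compared with heads at E11.5 on whole-transcriptome arrays. The samples were taken by their titles, which put 6 of the 16 arrays of the study at E13.5 and 4 at E11.5; the other 6, at E9.5, entered only where they are named and through the spread that all stages shared in the fit. The 4 E11.5 samples are numbered 33, 36, 51 and 52, and their values are given in that order below. The 6 E13.5 titles begin with B62 (3 samples) or B63 (3 samples), and the sources used here do not say what these prefixes stand for. Strain, genotype, sex and the number of embryos behind a sample are not given, and the samples of both stages are described only as biological replicates of untreated embryonic tissue. Total RNA was isolated with the same spin column kit at both stages. For labelling, the E11.5 RNA went through the one-cycle IVT (in vitro transcription) kit of the array maker and the E13.5 RNA through MessageAmp II-Biotin Enhanced of Ambion, so stage and labelling kit cannot be told apart in any value that follows. The titles speak of the head and the series of the brain, and the sources used here do not give the plane of dissection.

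Between these stages the mouse head passes from an organ made mostly of dividing neuroepithelium, neural crest mesenchyme and scattered muscle precursors to one with differentiated tissues. In the neural tube, progenitors held in division by Notch and SoxB1 factors give way to neurons that switch on cytoskeletal, synaptic and channel genes, and radial glia acquire nuclear factor I (NFI) proteins. In the face, myoblasts fuse into fibres, mesenchyme condenses into cartilage, and in the blood the large primitive red cells of the yolk sac mature while fetal liver cells begin to enter the circulation.

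The scale used is the log2 of the deposited probe set intensity, a difference is E13.5 minus E11.5, its error is the standard error (SE), and a gene was called when its adjusted p (limma, Benjamini-Hochberg over all 18193 genes) was under 0.05. Each value is a level relative to the rest of its array. In head tissue of many cell types, fewer cells of a type and less RNA per cell cannot be told apart. Of the 18193 genes, 5074 (27.9%) were higher and 4906 (27%) were lower at E13.5, and the median difference over all genes was 0.00. Counts of list members below stand against these shares. The fit took the 6 E13.5 arrays as independent, and the errors and adjusted p below rest on that. With the title prefix as a random block 4072 genes were higher and 3814 lower. A difference of at least 2-fold was called for 1052 genes upward (5.78%) and 692 downward (3.8%), and one of at least 4-fold for 167 and 70. For 7818 genes (43%) every array of one stage lay above every array of the other. Correlations across genes were 0.989 to 0.993 within E11.5, 0.996 to 0.998 within E13.5 and 0.955 to 0.963 between the stages. Of the genes at least 2-fold higher, 69 had an E11.5 mean under an intensity of 12, the lower quartile of every array, so that their folds start from the dim end of the scale; the same held for 30 of those at least 2-fold lower at E13.5. No fold is given below for such a gene, because its dim stage may lie near background. Its log2 difference is given and carries the same limit, as for Myl1, Cryga, Synpo2l, Nts, Hoxb5 and Gria1 among others.

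Technical controls also moved with the stage. Hybridisation controls lay between 11.15 and 11.74 on the E11.5 arrays and between 9.88 and 10.08 on the E13.5 arrays. The means of 18S ribosomal RNA probe sets were 10.19 ± 0.30 (SD, n = 4) and 10.74 ± 0.16 (SD, n = 6). The 3′ minus 5′ difference of the beta-actin control probe sets, a measure of RNA length, was 0.56 ± 0.05 at E11.5 and 0.47 ± 0.03 at E13.5. The part of these differences in the gene values was not tested.

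Because the kit changed, the probe sets of each gene were compared with one another. Each gene is represented by its brightest probe set, and 5644 of the called genes had at least one more. Among these, 2402 (42.6%) had 2 or more probe sets called in the gene's direction and none against it (1060 higher, 5.83% of all genes, and 1342 lower, 7.38%), and are called agreeing here. A further 1682 (29.8%) had fewer than 2 probe sets called in the gene's direction and none against it, and 1560 (27.6%) had probe sets called in opposite directions. The share of opposed genes was close to this between E11.5 and E9.5, which were labelled with the same kit and for which 57.8% of the genes were called: 1556 of 5921 genes, or 26.3%. Among genes at least 2-fold apart it was 22% between E13.5 and E11.5 and 18% between E11.5 and E9.5. These comparisons share the E11.5 arrays, and the difference between the shares was not tested. Every one of 2 or more probe sets was called higher for 626 genes and lower for 822.

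**Figure D1:**
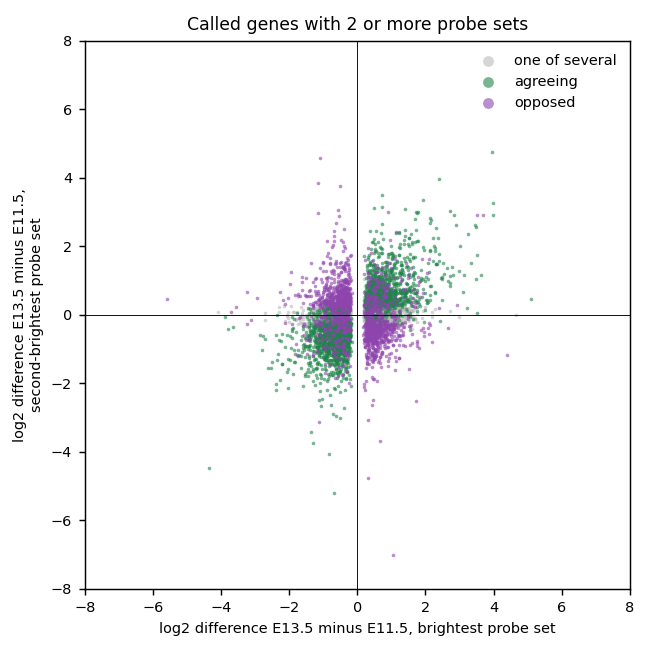
Log2 difference between E13.5 and E11.5 for the brightest probe set of a gene (horizontal axis) and for its second-brightest (vertical axis), for called genes with 2 or more probe sets. The colours separate genes with agreeing probe sets, with fewer than 2 called in the gene's direction and none against it, and with opposed calls. Agreeing genes (green) lie mostly at lower left and upper right, where both probe sets moved the same way, and many of the 1560 opposed genes (purple) at upper left and lower right.

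The widest gaps between probe sets called in opposite directions were in 5 genes. In Cryl1, which encodes a lambda-crystallin homologue that acts in sugar metabolism, one probe set rose by 1.05 and another was 7.03 lower. Depp1, an autophagy-linked gene, had probe sets at -5.58 and 0.44, and the others were Map1b (4.58 and -1.11), Myl4 (4.40 and -1.18) and Pitpnc1 (3.43 and -2.05), encoding a microtubule-binding protein, an embryonic myosin light chain and a phosphatidylinositol transfer protein. The brightest probe set of Depp1 read 11.88, 11.61, 12.52 and 11.83 at E11.5, between 6.29 and 6.48 at E13.5, and 6.38 on average at E9.5. Only the E11.5 arrays were thus high for it. The same held for other probe sets with large falls: means at E9.5 and medians at E13.5 were 7.91 and 8.04 for Med18, a Mediator subunit, and 4.35 and 4.43 for Nrip2, a nuclear receptor-interacting protein, against E11.5 values of at least 10.86 and 7.74.

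Among the 12 largest rises with agreeing probe sets and no overlap were genes of connective tissue (Dcn, Ogn, Tnc), cartilage and bone (Col9a3, Ibsp), muscle (Ttn, Synpo2l), epidermis (Krt14) and the NFI factors Nfix and Nfib, and they are described with their tissues below. Malat1, a long nuclear RNA, was at 8.29, 8.65, 8.46 and 8.16 at E11.5 and between 11.72 and 12.12 (median 11.85) at E13.5. It rose by 3.52 ± 0.52 (adjusted p = 7.9e-06 in limma), an error that takes in the spread of the E9.5 arrays. All 7 probe sets of Malat1 were called higher, with differences from 0.91 to 3.66. Pisd-ps3, a pseudogene of a phospholipid-synthesis enzyme that can share probes with its parent gene, rose by 3.34 ± 0.20 with all 5 probe sets.

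The 12 largest falls with agreeing probe sets included Hbb-bh1 and Slc4a1 of red cells, Shh, Neurod4, Fen1, Igdcc3 and Zbtb16, which are described below. Mid1, a microtubule-associated ubiquitin ligase on the X chromosome, fell by 3.80 ± 0.32, from 8.63, 9.49, 9.98 and 10.09 to between 5.21 and 6.51 (median 5.68), on 2 of 3 probe sets. Qtrt2, a subunit of the enzyme that puts queuosine into transfer RNA, fell by 2.71 ± 0.13 on both probe sets. The semaphorin genes Sema3f and Sema6c, axon guidance ligands, fell by 3.64 ± 0.14 and 2.52 ± 0.14, and their E9.5 means, 7.62 and 6.47, lay below the E11.5 values too. In Sema3f the second called probe set fell by 0.38 and the other was not called.

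**Figure D2:**
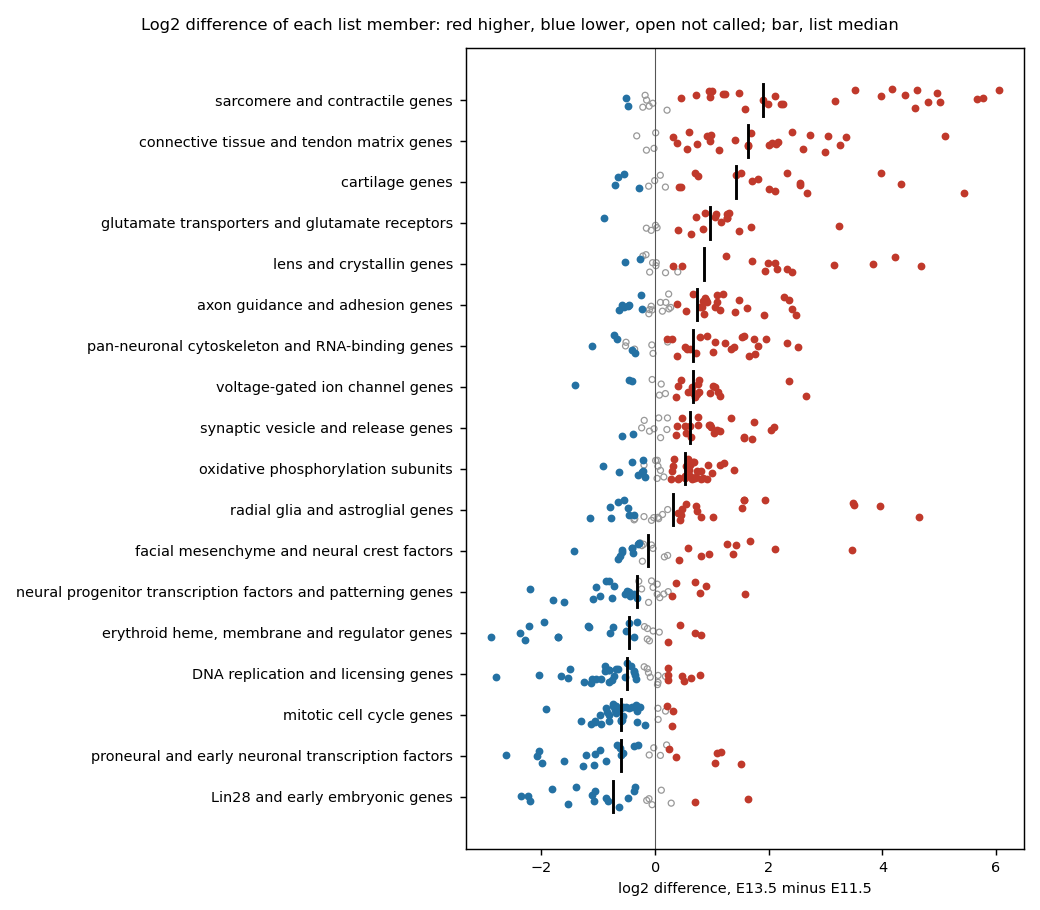
Log2 difference between E13.5 and E11.5 for each measured member of 18 gene lists; filled red points were called higher, filled blue points lower, open points were not called, and the black bar is the median of the list. The medians of the Lin28 (-0.73), proneural (-0.60), mitotic (-0.59), replication (-0.50) and erythroid (-0.47) lists lie to the left of 0, and those of the sarcomere (1.90), connective tissue (1.63) and cartilage (1.42) lists to the right.

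Muscle genes held 4 of the 5 largest rises among genes with 1 probe set. Among the factors that commit cells to muscle, Myog, which drives myoblasts into terminal differentiation, was at 4.25, 3.91, 4.25 and 4.52 at E11.5 and between 7.28 and 7.79 (median 7.69) at E13.5, a rise of 3.41 ± 0.13 (adjusted p = 2.4e-14). Its arrays lay far apart. Myod1, the determination factor that acts before it, rose by 1.40 ± 0.15 on 1 of 2 probe sets, Mef2c, a partner of both, by 1.54 ± 0.11 on all 5, and Mymk, the membrane protein of myoblast fusion, by 1.01 ± 0.12. Myf5 and Pax7 were not called in limma. Myf5 differed by 0.11 ± 0.15 (adjusted p = 0.537) at values from 2.58 to 3.58, at or under the lower quartile of every array. Pax7 differed by -0.29 ± 0.15 (adjusted p = 0.11). Without sample 33 both were called, at 0.31 and -0.40. Six4 and Eya1, a transcription factor and its phosphatase partner in precursors of muscle and sensory placodes, fell by 1.11 ± 0.10 and 1.24 ± 0.11. Of 17 measured regulators 7 rose and 2 fell, with a median of 0.11; without sample 33 the counts were 8 and 4, with a median of 0.23.

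Of 35 sarcomere genes 27 rose (77.1%, against 27.9% of all genes), 23 of them at least 2-fold, 2 fell and 6 were not called, and the median was 1.90 against 0.00 over all genes. Tnnc1, the calcium-binding troponin of slow and cardiac fibres, read 4.32, 3.70, 4.46 and 4.46 at E11.5 and 9.94 to 10.65 (median 10.25) at E13.5. That is a rise of 6.05 ± 0.16 (66.3-fold, adjusted p = 1.2e-16). Actc1, the actin of the heart and of embryonic skeletal muscle, read 5.39, 5.61, 5.39 and 5.64 against 11.06 to 11.34 (median 11.15), a rise of 5.66 ± 0.10 (50.5-fold, adjusted p = 5.5e-19). The fast myosin light chain Myl1 (5.76 ± 0.16), skeletal actin Acta1 (5.02 ± 0.18), embryonic myosin Myh3 (4.80 ± 0.15) and slow troponin I Tnni1 (4.17 ± 0.16) rose as well, each on its only probe set.

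Only 2 of the 27 rises had agreeing probe sets, and 5 members had opposed ones. Ttn, the giant protein that spans a half-sarcomere, rose by 3.98 ± 0.13 from 3.81, 3.70, 4.17 and 3.70 to between 7.40 and 8.10 (median 7.93), with 4 of 6 probe sets called higher and none lower. Synpo2l, a Z-disc protein, rose by 3.53 ± 0.10 on 2 of 4. Myl4 was opposed as described above, and Mybpc1, myosin-binding protein C, fell by 0.51, against 2 further probe sets that were called higher. Xirp1, an actin-binding protein of growing muscle, fell by 0.47 ± 0.14 with overlapping arrays.

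Of 19 genes of the calcium store and the nerve-muscle synapse 11 rose and 2 fell, with a median of 0.46. Sln, a regulator of the calcium pump, read 3.17 on all 4 E11.5 arrays and 5.73 to 6.21 (median 5.82) at E13.5, a rise of 2.72 ± 0.10 on 1 of 2 probe sets. The fast-fibre calcium pump Atp2a1 rose by 1.46 ± 0.13 and Chrna1, the muscle acetylcholine receptor subunit, by 1.01 ± 0.15. Jsrp1, a junctional protein of the calcium store, fell by 0.83 ± 0.15.

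Upstream sequence of 4 muscle genes is shown because motifs long studied in muscle promoters lie in it; each run holds the 150 bases before the annotated start, 5′ to 3′ on the gene's strand, from RefSeq on GRCm38.p6, with matches in capitals to the CArG box (bound by serum response factor), MCAT (CATTCC, bound by TEAD factors) and the E-box (CAGCTG, bound by Myod1 and Myog), on either strand.
Acta1, chr8:123894776-123894925, minus strand: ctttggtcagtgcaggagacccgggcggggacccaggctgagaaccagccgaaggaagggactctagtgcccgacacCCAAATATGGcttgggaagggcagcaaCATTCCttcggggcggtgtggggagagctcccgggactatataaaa
Actc1, chr2:114052876-114053025, minus strand: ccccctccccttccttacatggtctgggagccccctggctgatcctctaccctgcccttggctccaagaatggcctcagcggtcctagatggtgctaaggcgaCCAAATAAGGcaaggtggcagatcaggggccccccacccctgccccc
Tnnc1, chr14:31208162-31208311, plus strand: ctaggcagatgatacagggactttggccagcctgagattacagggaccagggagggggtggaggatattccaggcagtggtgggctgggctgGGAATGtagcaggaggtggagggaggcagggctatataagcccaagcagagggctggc
Tnni1, chr1:135799271-135799420, plus strand: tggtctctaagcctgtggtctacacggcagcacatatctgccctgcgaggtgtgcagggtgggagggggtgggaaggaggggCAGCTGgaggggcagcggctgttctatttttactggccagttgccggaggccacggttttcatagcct

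The CArG box began 73 bases before the start of Acta1 and 47 before that of Actc1, and an MCAT match 58 bases before that of Tnnc1. In windows of 300 bases (250 before to 50 after the start), 4 of the 27 sarcomere genes with a window held a CArG box (14.8%), against 197 of 14452 measured genes (1.36%). An E-box was in 11 (40.7%) against 16.1%, and an MCAT match in 7 (25.9%) against 13.1%. A match is a run of letters, not a bound site.

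**Figure D3:**
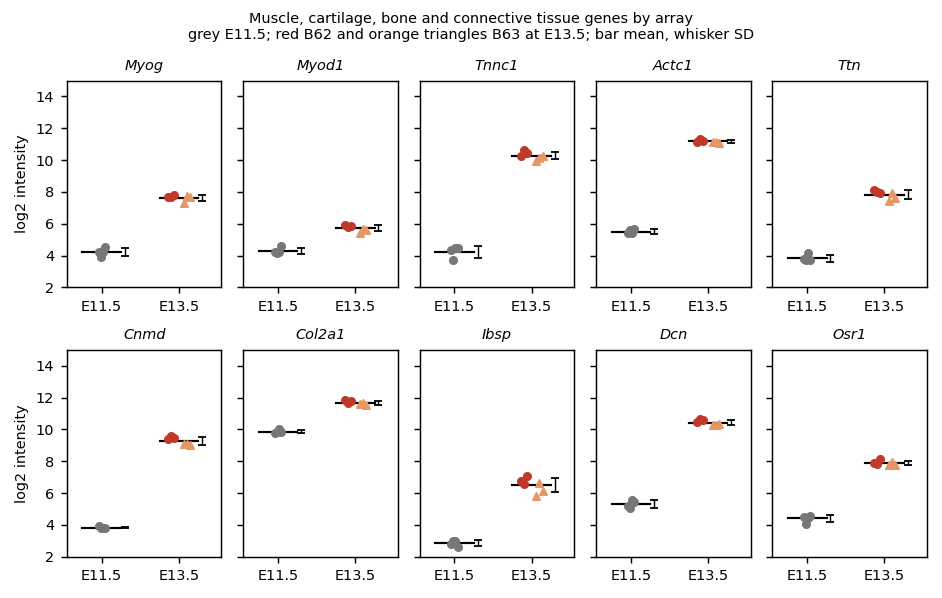
Log2 intensity of 10 muscle, cartilage, bone and connective tissue genes on each array, E11.5 in grey (n = 4) and E13.5 in red for the B62 and orange for the B63 samples (3 each); bars are stage means and whiskers SD. The stages do not overlap in any of the panels.

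Cartilage genes were mostly higher. Of 25 measured, 17 rose, 4 fell and 4 were not called, with a median of 1.42. Cnmd, chondromodulin, which keeps cartilage free of vessels, read 3.91, 3.81, 3.81 and 3.81 at E11.5 and 9.04 to 9.57 (median 9.26) at E13.5, a rise of 5.44 ± 0.13 (43.5-fold, adjusted p = 6.3e-17). The E11.5 arrays were close to one another and far below every E13.5 array. The matrix protein gene Matn4 rose by 4.32 ± 0.09, Col9a3, a chain of the collagen that coats cartilage fibrils, by 3.97 ± 0.10 on 2 of 3 probe sets, and Acan, the main proteoglycan, by 2.55 ± 0.15. Col2a1, the principal fibrillar collagen, was already high at E11.5 (9.80, 9.81, 10.04 and 9.81) and rose by 1.81 ± 0.12 to between 11.51 and 11.85 (median 11.66).

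The 4 cartilage members called lower were Ucma, Sox9, Fgfr3 and Ihh. Ucma, a secreted protein of cartilage, was 0.70 ± 0.09 lower on its brightest probe set, with the other one called higher. Sox9, the master factor of chondrocytes that neural progenitors also express, was 0.65 ± 0.09 lower on its brightest probe set, with one of the others called higher. The receptor gene Fgfr3, also a progenitor gene, fell by 0.55 ± 0.09 on both probe sets, and Ihh, the signal of growth plate cartilage, by 0.28 ± 0.09 with overlapping arrays; without sample 36 Ihh was not called (-0.24).

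In bone, Ibsp, bone sialoprotein, read 2.81, 3.0, 3.0 and 2.58 against 5.83 to 7.04 (median 6.59), a rise of 3.65 ± 0.17 (adjusted p = 9.5e-13) from under the lower quartile of the array, with both probe sets called. Col1a2 rose by 2.29 ± 0.10 on all 3 probe sets and Sparc, a collagen-binding protein, by 2.23 ± 0.11. Sp7, the factor that defines osteoblasts, rose by 0.58 ± 0.11 from an E11.5 mean of 4.53. Of 20 bone and tooth genes 11 rose and 4 fell, with a median of 0.48.

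The largest fall in that list was Shh, the hedgehog ligand of the ventral midline, facial epithelium and tooth germs. It read 10.72, 10.88, 10.57 and 10.49 at E11.5 and 7.66 to 7.92 (median 7.83) at E13.5, a fall of 2.85 ± 0.10 (7.19-fold, adjusted p = 1.7e-14). The other probe set fell by 0.59. Msx2, a homeobox factor of facial mesenchyme, fell by 0.96 ± 0.10 with both probe sets called.

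Connective tissue had the highest share of rises among the 43 lists, 25 of 29 genes (86.2%), with 17 at least 2-fold and 13 with agreeing probe sets, while 0 fell at an adjusted p under 0.05 in limma. Its median was 1.63. Without sample 51, 24 rose and 1 fell. Dcn, the small proteoglycan decorin, read 5.21, 5.04, 5.55 and 5.46 against 10.26 to 10.66 (median 10.39), a rise of 5.11 ± 0.15 (34.4-fold, adjusted p = 5.1e-16). The second probe set, near the bottom of the scale, rose by 0.45. Col6a3 (3.37 ± 0.14), the related proteoglycan Ogn (3.25 ± 0.16, both probe sets), the matricellular protein Postn (3.05 ± 0.09) and Col14a1 (2.99 ± 0.13) followed. Tnc, tenascin C of tendon, cartilage and radial glia, rose by 3.50 ± 0.11, while the tendon factor Scx rose by 0.60 ± 0.10 to at most 4.0.

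Transcription factors of the facial mesenchyme were split. Of 28 measured, 10 rose (35.7%), 10 fell (35.7%) and 8 were not called, against 27.9% and 27% of all genes. The list median was -0.13. Osr1, an odd-skipped factor of connective tissue and jaw mesenchyme, read 4.52, 4.09, 4.46 and 4.58 against 7.74 to 8.12 (median 7.86), a rise of 3.46 ± 0.15 (11-fold, adjusted p = 2.8e-13). Meox2, a factor of muscle-associated mesenchyme, rose by 1.68 ± 0.13 on both probe sets, and Hand2, of the lower jaw, by 2.10 ± 0.12 on its brightest with another called lower. The frontonasal factors Alx1 and Alx4 fell by 1.42 ± 0.11 and 0.65 ± 0.18, the latter with overlapping arrays. Without sample 52 the median of these factors was -0.06.

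All 3 embryonic globins measured fell. Hbb-bh1, the beta-like globin of the earliest yolk sac red cells, read 13.43, 13.54, 12.39 and 13.19 at E11.5 and 8.37 to 9.37 (median 8.70) at E13.5, a fall of 4.35 ± 0.20 (20.4-fold, adjusted p = 5.3e-13). All 3 of its probe sets fell, the other pair by a median of 4.39. The alpha-like embryonic globin Hba-x fell by 0.93 ± 0.17, from 13.15, 13.10, 12.43 and 13.04 to between 11.64 and 12.36 (median 11.96), and Hbb-y, the beta-like globin that primitive cells keep longest, by 0.63 ± 0.07, from 14.00, 14.10, 14.00 and 14.03 to between 13.30 and 13.51 (median 13.40). The stages did not overlap in either.

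The globins of definitive cells were not lower. Hba-a2, an adult alpha globin, rose by 0.51 ± 0.20 (adjusted p = 0.0351), from 7.32, 7.20, 7.68 and 7.38 to between 7.79 and 7.99 (median 7.91). That call was lost without sample 33, 36, 52, B62E7K, B62E8K or B63E6K, with differences from 0.45 to 0.51. Hbb-b2, an adult beta globin, rose by 0.66 ± 0.10 on 1 of 2 probe sets. Hba-a1 differed by 0.13 ± 0.11 (adjusted p = 0.324) at values from 2.81 to 3.58 and was called higher without sample 52 (0.28). The adult globin copies are nearly identical, so probes can cross between them, and the globins on probe sets that name several genes were not used.

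Of 25 other red cell genes 15 fell (60% against 27% of all genes), 3 of them with agreeing probe sets, 4 rose and 6 were not called, with a median of -0.47. Hemgn, a nuclear protein of red cell precursors outside that list, read 8.48, 9.07, 6.77 and 8.11 against 2.58 to 3.32 (median 2.90), a fall of 5.19 ± 0.27 (adjusted p = 4.1e-12) to under the lower quartile of the array, on its only probe set. Slc25a37, the mitochondrial iron carrier for heme, fell by 2.89 ± 0.18, the anion exchanger Slc4a1 by 2.38 ± 0.27 on all 3 probe sets, carbonic anhydrase Car2 by 2.29 ± 0.16 and Rhag, a partner of the Rh antigen, by 2.21 ± 0.22. Among the regulators Klf1 fell by 1.71 ± 0.13 and Gata1 by 0.38 ± 0.15 with overlapping arrays, and Alas2, the first enzyme of red cell heme synthesis, fell by 0.47 ± 0.14. Gata1 was not called without sample 33, 36, 52, B62E6K, B62E8K or B63E6K, with differences from -0.39 to -0.22. Bcl11a, a globin-switching factor that neurons express strongly, rose by 0.81 ± 0.16, and Urod, a general heme enzyme, by 0.70 ± 0.10 with its second probe set called lower.

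Red cell genes also varied within each stage. The median of the erythroid list was 7.23, 7.29, 6.52 and 7.22 on the E11.5 arrays, and sample 51 was the lowest of the 4 for 19 of the 25 genes. At E13.5 it was 5.61 to 6.11 in the B62 and 6.52 to 6.82 in the B63 samples, so that the medians of sample 51 and of the B63 samples overlapped. Without sample 51, 17 of the 25 fell and 4 rose, with a median of -0.57. Sample 51 was also the lowest at E11.5 for 24 of 39 mitotic genes and the highest for 24 of 34 pan-neuronal genes, and its part in those results is given with them.

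Upstream sequence of 2 red cell surface genes is shown for its GATA match (AGATAA, bound by Gata1), in capitals, in the 150 bases before the annotated start. Rhd, the Rh antigen gene, fell by 1.71 ± 0.14 and Kel, a surface endopeptidase gene, by 1.17 ± 0.13.
Rhd, chr4:134864386-134864535, plus strand: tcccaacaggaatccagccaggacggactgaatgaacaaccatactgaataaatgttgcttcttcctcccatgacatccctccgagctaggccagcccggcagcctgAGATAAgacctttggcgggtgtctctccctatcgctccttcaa
Kel, chr6:41704326-41704475, minus strand: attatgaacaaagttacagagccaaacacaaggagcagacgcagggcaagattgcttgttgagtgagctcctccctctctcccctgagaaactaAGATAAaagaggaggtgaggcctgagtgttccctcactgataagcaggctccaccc

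The matches began 43 and 56 bases before the start. AGATAA or its reverse was in the 300-base window of 7 of 17 erythroid genes with a window (41.2%), against 8.13% of all measured genes.

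**Figure D4:**
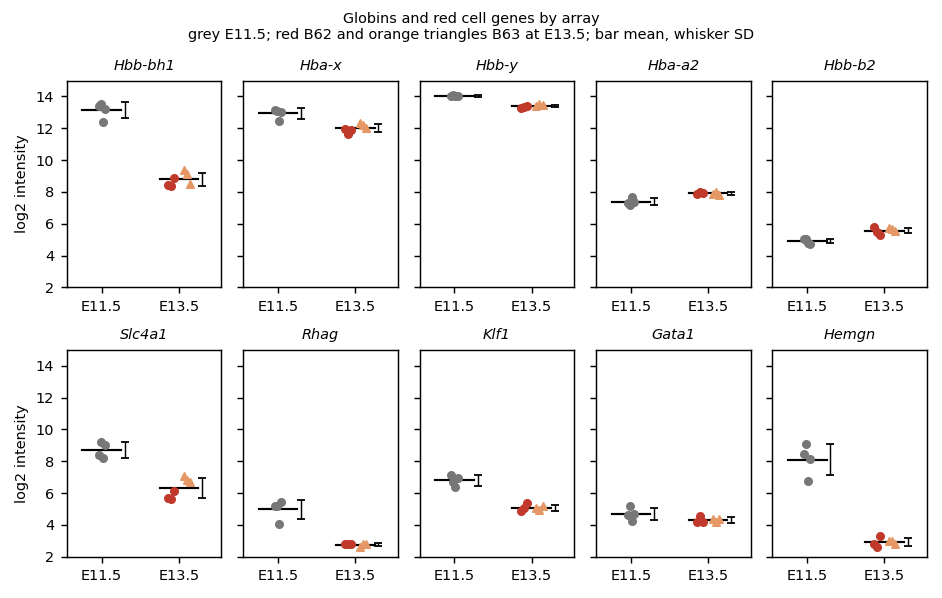
Log2 intensity of 5 globins and 5 red cell genes on each array, E11.5 in grey (n = 4) and E13.5 in red for the B62 and orange for the B63 samples (3 each); bars are stage means and whiskers SD. Hbb-bh1, Hemgn and Rhag fall far below their E11.5 values, Hba-a2 and Hbb-b2 sit slightly above theirs, and 1 E11.5 array (sample 51) is the lowest for Hbb-bh1, Hba-x, Slc4a1, Rhag, Klf1, Gata1 and Hemgn.

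Of 27 proneural and early neuronal factors 17 fell, 6 rose and 4 were not called, with a median of -0.60. Agreeing probe sets backed 3 of the falls and 5 of the rises, and 2 genes had opposed ones. Neurod4, a basic helix-loop-helix factor of new neurons, read 6.54, 6.78, 6.51 and 6.44 against 3.58 to 4.32 (median 3.95), a fall of 2.62 ± 0.19 (6.13-fold, adjusted p = 6.3e-10) in which all 3 probe sets took part. The stages were well apart. Neurog1, which specifies sensory and telencephalic neurons, fell by 2.07 ± 0.13 on 1 of 2 probe sets, Atoh1, of the rhombic lip and hair cells, by 2.04 ± 0.15, and Nhlh2 by 2.0 ± 0.35. The postmitotic factors Myt1l and Lhx9 rose by 1.51 ± 0.12 and 1.15 ± 0.19, with 4 of 5 and 2 of 4 probe sets called.

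Of 34 pan-neuronal genes 23 rose, 5 fell and 6 were not called, with a median of 0.67. Without sample 51 these counts were 23 and 5, with a median of 0.73. Celf4, an RNA-binding protein of neurons, read 7.45, 7.29, 7.61 and 7.55 against 9.91 to 10.12 (median 9.98), a rise of 2.51 ± 0.09 (5.71-fold, adjusted p = 2.2e-14) on all 3 probe sets. The growth cone gene Gap43 rose by 2.32 ± 0.10, the tubulin regulator Stmn4 by 1.95 ± 0.13, and the tubulins Tubb2a and Tubb3 by 1.81 ± 0.10 and 1.53 ± 0.20. Some abundant genes of young neurons went down on their brightest probe set: Marcks, a membrane-bound actin regulator, by 0.72 ± 0.07 with 6 of 7 probe sets lower and 1 higher, Tubb2b by 0.41 ± 0.10, and Map1b by 1.11 ± 0.13 while its other 2 probe sets were called higher, by a median of 2.53.

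Of 32 synaptic genes 22 rose and 2 fell, with a median of 0.61. Without sample 51 the counts were 21 and 1, with a median of 0.69, and the fall count was also 1 without B62E6K, B63E5K or B63E7K. Syt1, the calcium sensor of vesicle release, rose by 1.75 ± 0.10 from 6.38, 6.49, 6.95 and 6.60 to between 8.24 and 8.47 (median 8.35), and Sncg, a synuclein of sensory neurons, by 1.71 ± 0.11. The fusion protein gene Snap25 and the vesicle GTPase gene Rab3c rose by 2.09 ± 0.24 and 2.04 ± 0.13 but each had 1 probe set called lower. The postsynaptic scaffold genes Homer1 and Dlg4 fell by 0.58 ± 0.08 and 0.39 ± 0.15, Homer1 on 5 of 6 probe sets and Dlg4 with 2 others called higher. Dlg4 was at -0.22 and not called without sample 51, nor was it called without B62E6K, B63E5K or B63E7K.

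Among receptors and channels, Gria2, the AMPA receptor subunit that limits calcium entry, read 5.09, 5.25, 6.04 and 5.61 against 8.58 to 8.92 (median 8.72), a rise of 3.23 ± 0.18 (9.4-fold, adjusted p = 1.1e-11) on 2 of 3 probe sets. Gria1 rose by 1.68 ± 0.15 on both. Of 20 glutamate receptor and transporter genes 15 rose and 1 fell, with a median of 0.96; the exception was the kainate receptor subunit Grik3, at -0.89 ± 0.18 with its second probe set called higher. Of 26 voltage-gated channel genes 19 rose and 3 fell, with a median of 0.66. The calcium channel subunit gene Cacna2d3 rose by 2.36 ± 0.12 and the sodium channel subunit gene Scn3b by 2.66 ± 0.16, the latter with 1 probe set against it, and the potassium channel gene Kcna2 fell by 1.42 ± 0.18 with 2 probe sets against it.

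Of 40 axon guidance and adhesion genes 23 rose, 7 fell and 10 were not called, with a median of 0.73. The immunoglobulin-family genes Chl1, Ntm and Negr1 rose by 2.49 ± 0.11, 2.41 ± 0.12 and 2.36 ± 0.09 and the cadherin gene Cdh13 by 2.27 ± 0.15. For Ntm all 3 probe sets were called. The repellent Slit2 fell by 0.63 ± 0.10 on 2 of 3 probe sets and its receptor Robo1 by 0.58 ± 0.16 on 1 of 3.

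Among genes of particular neuron classes, Neurod6, a marker of cortical and hippocampal projection neurons, read 3.0, 2.81, 2.81 and 2.81 at E11.5 and 6.95 to 7.42 (median 7.31) at E13.5, a rise of 4.41 ± 0.08 (adjusted p = 1.1e-18). The E11.5 arrays lay under the lower quartile, from 2.81 to 3.0. Bcl11b, of deep-layer and striatal neurons, rose by 2.36 ± 0.14 on all 4 probe sets, and Lmo4, of cortex and other tissues, by 2.08 ± 0.10. The markers of intermediate progenitors and of early cortical neurons, Eomes (0.32 ± 0.15, adjusted p = 0.0806) and Tbr1 (-0.16 ± 0.12, adjusted p = 0.262), were not called, though Eomes was called higher without sample 36 (0.48). Cux2 and Pou3f2, of progenitors and upper layers, fell by 1.62 ± 0.12 and 1.37 ± 0.13, the former with 1 probe set against it. Of the 24 cortical factors 11 rose (45.8%) and 9 fell (37.5%), against 27.9% and 27% of all genes, with a median of 0.20.

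Of 21 genes of the GABAergic lineage 14 rose and 4 fell, with a median of 0.42; 0 of these calls had agreeing probe sets and 6 genes had opposed ones. Dlx1, of the ganglionic eminences, rose by 1.38 ± 0.09, the peptide genes Npy and Sst by 1.78 ± 0.20 and 1.15 ± 0.22, and Zeb2, a factor of migrating interneurons and other cells, by 1.79 ± 0.14 with 1 probe set against it. Sp8, a factor of the forebrain, limb and facial epithelium, had the largest of the 4 falls. It read 7.63, 7.43, 7.33 and 7.32 at E11.5 and 4.75 to 5.04 (median 4.95) at E13.5, a fall of 2.50 ± 0.09 (5.66-fold, adjusted p = 1.2e-14).

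Of peptidergic genes 16 of 28 rose and 7 fell, with a median of 0.59. Penk, the enkephalin precursor, read 6.49, 6.02, 6.66 and 6.66 against 9.01 to 9.30 (median 9.17), a rise of 2.71 ± 0.14 (6.55-fold, adjusted p = 4.1e-12). Scg5, a granule chaperone, and Nts, neurotensin, rose by 2.01 ± 0.18 and 2.0 ± 0.14, and Hesx1, a factor of the early pituitary, fell by 0.69 ± 0.16. Of 24 monoamine and acetylcholine genes 8 rose (33.3%), 4 fell (16.7%) and 12 were not called, against 27.9% and 27% of all genes. Their median was 0.20 (0.12 without sample 33). The rate-limiting enzyme Th rose by 0.58 ± 0.09 and the noradrenaline transporter Slc6a2 by 0.94 ± 0.11, while the vesicle transporter Slc18a2 fell by 1.18 ± 0.16. In cranial ganglia and sense organs 11 of 22 rose and 6 fell, with a median of 0.22 (0.14 without sample 33), among them the neurotrophin receptor Ntrk3 (1.43 ± 0.17, 5 of 8 probe sets) and the ear matrix protein Oc90 (1.49 ± 0.28).

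Among progenitor genes, Hes5, a direct Notch target that holds progenitors in division, read 11.08, 11.09, 11.03 and 11.17 against 8.61 to 9.04 (median 8.95), a fall of 2.21 ± 0.11 (4.62-fold, adjusted p = 1.7e-12) on both probe sets. The SoxB1 factors fell together, Sox1 by 1.79 ± 0.13 on 1 of 2 probe sets, Sox3 by 1.09 ± 0.13 on both and Sox2 by 1.04 ± 0.09 on its only one. En2, of the midbrain-hindbrain region, fell by 1.61 ± 0.13. Of 33 genes of this list 16 fell, 6 rose and 11 were not called, with a median of -0.32. The rises included Gbx2, also of hindbrain and thalamus (1.58 ± 0.17), and Hes1 (0.90 ± 0.09), which mesenchyme expresses too.

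Radial glial genes were called in both directions. Nfib, the NFI factor of glial and late progenitor differentiation, read 7.20, 7.46, 7.69 and 7.56 against 10.89 to 11.10 (median 10.92), a rise of 3.48 ± 0.14 (11.1-fold, adjusted p = 5.8e-14). All 7 of its probe sets rose, by 0.57 to 4.76. Nfix read 5.25, 5.21, 6.13 and 5.73 against 9.27 to 9.81 (median 9.55), a rise of 3.96 ± 0.17, and Nfia rose by 1.94 ± 0.17 on all 6 probe sets. Aldoc, the aldolase of astroglia, rose by 4.65 ± 0.15 on one probe set, and the other differed by -0.01. Nes, nestin of early radial glia, fell by 0.79 ± 0.08 on 1 of 3, and the proteoglycan gene Ncan by 1.15 ± 0.09 with 1 probe set against it. In all 17 of 34 rose and 8 fell, with a median of 0.32.

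Oligodendrocyte genes showed 3 rises (18.8%) and 6 falls (37.5%) among 16, against 27.9% and 27% of all genes, with a median of -0.10. Without sample 52 there were 2 and 4, with a median of -0.04. Cspg4, which pericytes share with oligodendrocyte precursors, rose by 1.24 ± 0.09 on both probe sets, and Nkx2-2 and Tspan2 fell by 1.44 ± 0.20 and 1.97 ± 0.17. In the choroid plexus list 10 of 18 rose and 4 fell, with a median of 0.41. Ttr, the thyroxine carrier made by this epithelium, spread widely at E11.5 (9.51, 9.50, 10.24 and 8.42) and lay between 11.68 and 11.96 (median 11.80) at E13.5, a rise of 2.40 ± 0.23 on all 4 probe sets. The water channel Aqp1 rose by 2.59 ± 0.09, and Lmx1a, of the roof plate from which the plexus forms, fell by 0.74 ± 0.11.

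**Figure D5:**
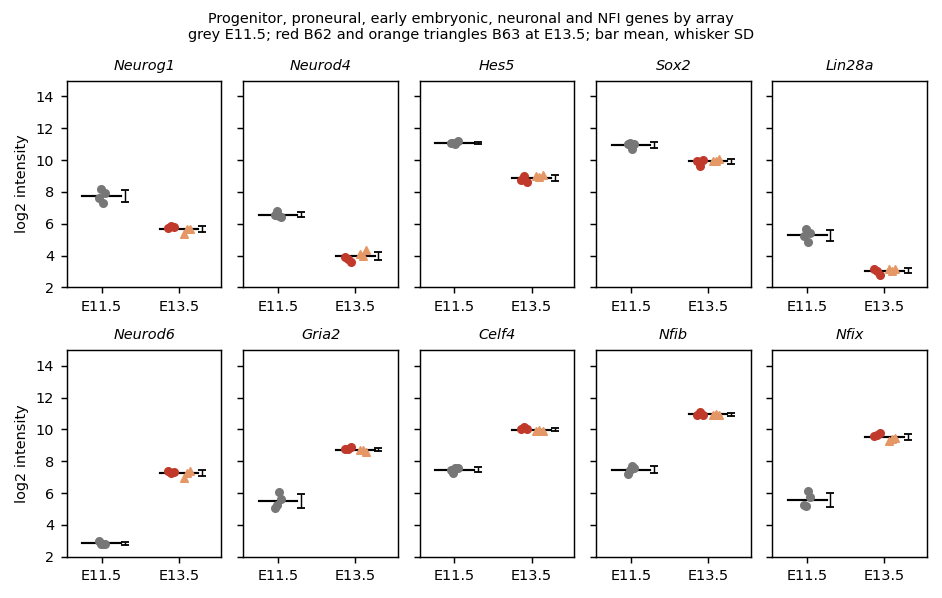
Log2 intensity of 10 progenitor, proneural, early embryonic, neuronal and NFI genes on each array, E11.5 in grey (n = 4) and E13.5 in red for the B62 and orange for the B63 samples (3 each); bars are stage means and whiskers SD. The upper row (Neurog1, Neurod4, Hes5, Sox2, Lin28a) lies lower at E13.5 and the lower row (Neurod6, Gria2, Celf4, Nfib, Nfix) higher, with no overlap.

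Of 39 mitotic genes 33 fell (84.6% against 27% of all genes), 3 rose and 3 were not called, with a median of -0.59; only 5 fell at least 2-fold, and 14 fell with agreeing probe sets. Ect2, the exchange factor that starts cytokinesis, read 9.28, 9.43, 9.22 and 9.25 against 7.19 to 7.52 (median 7.37), a fall of 1.93 ± 0.10 (3.8-fold, adjusted p = 1.7e-12). The checkpoint kinase gene Bub1 fell by 1.31 ± 0.09 on both probe sets, its relative Bub1b by 1.13 ± 0.07 with 1 probe set against it, the cytokinesis regulator Racgap1 by 1.06 ± 0.08 and the motor Kif2c by 1.06 ± 0.09. The exceptions were Birc5 (0.32 ± 0.07) and Aurkb (0.30 ± 0.11, second probe set lower) of the chromosomal passenger complex and Mki67 (0.20 ± 0.08). Birc5 alone of these had arrays that did not overlap. Aurkb was not called without sample 33 or 51 (0.24 and 0.20), nor Mki67 without sample 33, 51, 52, B62E6K, B63E5K or B63E6K (0.16 to 0.20). Without sample 51, 1 of the 39 rose and 32 fell, with a median of -0.63, and the counts were also 1 and 32 without sample 33.

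Of 41 replication genes 26 fell, 19 of them with agreeing probe sets, and 7 rose, with a median of -0.50. Fen1, the flap nuclease of lagging-strand synthesis, fell by 2.80 ± 0.13 from 12.59, 12.32, 12.88 and 12.40 to between 9.65 and 9.86 (median 9.74). Its E9.5 mean of 10.73 lay between them, and the second probe set fell by 1.04. Cdc6, the loader of the replicative helicase, fell by 2.05 ± 0.14, and the helicase genes Mcm2 and Mcm3 by 1.66 ± 0.10 and 1.53 ± 0.12, with all 2 and all 5 probe sets called. Gins4, another helicase subunit, and Dnmt1, the maintenance methyltransferase, rose by 0.80 ± 0.07 and 0.63 ± 0.09, the latter on 1 of 3 probe sets.

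Regulators of entry into the cycle were mixed, with 13 of 30 lower (43.3%), 9 higher (30%) and a median of -0.24 (-0.14 without sample 36). Of all genes 27% were lower and 27.9% higher. E2f3, an activator of S phase genes, fell by 1.87 ± 0.11 on both probe sets, Ccne2 by 1.40 ± 0.11 and Ccnd1 by 0.75 ± 0.08 on all 3. The inhibitor Cdkn1c, an imprinted gene, read 10.69, 10.68, 10.76 and 10.75 against 12.36 to 12.49 (median 12.42), a rise of 1.70 ± 0.13 (3.26-fold, adjusted p = 1.3e-09). Cdkn1a, the other inhibitor of that family to be called, rose by 1.02 ± 0.10 on both probe sets. Cdk5r1, the neuronal activator of Cdk5, rose by 1.43 ± 0.13 with 1 probe set against it.

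Upstream sequence of 3 mitotic genes is shown because it holds both letter runs known from promoters of this phase, CCAAT (bound by NF-Y) and the cell cycle homology region CHR (TTTGAA), in capitals on either strand, within the 150 bases before the annotated start.
Ect2, chr3:27153879-27154028, minus strand: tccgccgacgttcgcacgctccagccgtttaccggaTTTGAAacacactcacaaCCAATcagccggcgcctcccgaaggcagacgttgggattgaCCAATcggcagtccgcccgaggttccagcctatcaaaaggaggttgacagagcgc
Kif11, chr19:37376232-37376381, plus strand: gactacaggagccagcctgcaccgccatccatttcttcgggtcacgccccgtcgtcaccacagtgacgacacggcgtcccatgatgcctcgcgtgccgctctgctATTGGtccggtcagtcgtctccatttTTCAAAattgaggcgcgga
Top2a, chr11:99024190-99024339, minus strand: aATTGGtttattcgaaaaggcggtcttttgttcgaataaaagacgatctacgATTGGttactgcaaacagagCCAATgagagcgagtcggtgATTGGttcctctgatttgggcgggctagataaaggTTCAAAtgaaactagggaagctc

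Of these, Kif11, a spindle motor, fell by 0.85 ± 0.11 and Top2a, the mitotic topoisomerase, by 0.19 ± 0.07 (adjusted p = 0.0298) on its brightest probe set and by a median of 1.26 on the others. The brightest probe set of Top2a was not called without sample 33, 36, B62E7K, B62E8K or B63E7K (-0.18 to -0.17). In 300-base windows the CHR run was in 25 of 33 mitotic genes (75.8%), in 5 of 34 replication genes (14.7%) and in 13.3% of all measured genes. CCAAT was in 24 (72.7%) and 23 (67.6%) of those lists and in 38.2% of all. Matches to the 2 runs did not overlap in the windows shown.

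Of 22 genes around the Lin28 pathway, which keeps embryonic cells in an early state by blocking let-7 microRNAs, 15 fell, 2 rose and 5 were not called, with a median of -0.73. Sall4, a zinc finger factor of pluripotent and early cells, read 7.20, 7.21, 6.82 and 7.23 against 4.09 to 5.09 (median 4.83), a fall of 2.36 ± 0.14 (5.12-fold, adjusted p = 3.6e-11). Lin28a read 5.21, 5.67, 4.86 and 5.43 against 2.81 to 3.17 (median 3.08), a fall of 2.24 ± 0.13, after an E9.5 mean of 10.73. Both had both probe sets called.

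Among the let-7 targets of this list, Igf2bp1, Trim71 and Hmga2 fell by 2.20 ± 0.09, 1.52 ± 0.12 and 1.39 ± 0.10. Of their probe sets 4 of 4, 2 of 2 and 3 of 4 were called. Not all members went down: Mycn fell by 1.81 ± 0.08 on 2 of 3 with 1 against, while its relative Myc had the largest rise of the list, 1.63 ± 0.12. Other genes with E9.5 means above their E11.5 means fell as well. Igdcc3 and Prtg, immunoglobulin-family genes of the early neural tube, fell by 2.78 ± 0.14 and 1.08 ± 0.11. Zbtb16, a zinc finger factor of early progenitors, fell by 2.39 ± 0.10 on all 3 probe sets, and Fndc3c1, an X-linked gene with fibronectin domains, by 2.55 ± 0.11.

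In the eye, of 24 lens genes 14 rose, 12 of them at least 2-fold, and 2 fell, with a median of 0.86. Cryba1 read 4.52, 3.91, 4.64 and 4.75 against 8.90 to 9.43 (median 9.11), a rise of 4.67 ± 0.14 (25.5-fold, adjusted p = 7.6e-16), and the crystallin genes Cryga, Cryaa and Crybb3 rose by 4.22 ± 0.11, 3.83 ± 0.16 and 3.14 ± 0.18. The gamma crystallins are close copies that can share probes. Bfsp2, a lens filament protein, and Foxe3, a factor of the lens epithelium, fell by 0.52 ± 0.13 and 0.27 ± 0.10, the latter with overlapping arrays. Foxe3 was not called without sample 33, B63E6K or B63E7K (-0.24 to -0.20), which left 1 fall in the lens list. Pigment cell genes gave 3 rises (17.6%) and 2 falls (11.8%) among 17, against 27.9% and 27% of all genes. Their median was 0.01 (-0.02 without sample 51 and 0.08 without sample 36). Dct, a melanin enzyme, rose by 1.07 ± 0.14 and the visual cycle carrier Rlbp1 by 1.09 ± 0.10. The endothelin receptor Ednrb fell by 0.68 ± 0.10 with 1 probe set against it. Of 18 retinal genes 5 were higher (27.8%) and 5 lower (27.8%), against 27.9% and 27% of all genes, with a median of -0.01 (-0.05 without sample 33): Atoh7, of ganglion cell precursors, rose by 0.72 ± 0.11 on both probe sets and Six6, of the optic cup, fell by 0.76 ± 0.17 with overlapping arrays.

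In the surface ectoderm 21 of 35 genes rose and 4 fell, with a median of 0.42. The keratins of the basal layer led: Krt15 rose by 4.01 ± 0.11, Krt14 by 3.44 ± 0.09 from 4.32, 4.25, 4.39 and 4.58 to between 7.69 and 7.98 (median 7.81), and Krt5 by 2.34 ± 0.15. The desmosomal gene Dsp rose by 2.11 ± 0.16 on 2 of 3 probe sets. Cldn4, of tight junctions, and Sfn, an epithelial 14-3-3 protein, fell by 0.89 ± 0.10 and 0.83 ± 0.11.

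Of 37 vessel genes 18 rose (48.6%) and 8 fell (21.6%), against 27.9% and 27% of all genes, with a median of 0.28. Rgs5, of pericytes, read 5.04, 5.0, 4.86 and 5.13 against 6.93 to 7.47 (median 7.28), a rise of 2.24 ± 0.11 (4.71-fold, adjusted p = 1.8e-12) on 2 of 4 probe sets. Smooth muscle actin Acta2 rose by 1.38 ± 0.20 on 1 of 3, Lyve1, of lymphatic vessels and macrophages, by 1.36 ± 0.10 on both, and the tight junction gene Cldn5 by 1.19 ± 0.10. Notch3 fell by 1.30 ± 0.11 on both probe sets, and Fli1, an endothelial and blood factor, by 2.12 ± 0.12 on 1 of 2.

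Macrophage and microglial genes showed 15 rises, 1 of them with agreeing probe sets, and 4 falls among 31, with a median of 0.22 (0.12 without sample 51). The complement genes C1qa and C1qb rose by 1.54 ± 0.11 and 0.97 ± 0.12, the latter on all 3 probe sets. Laptm5, a lysosomal protein of blood cells, was 3.56 ± 0.22 lower on its brightest probe set, from 9.0, 7.98, 9.71 and 9.24 to between 5.17 and 5.58 (median 5.44). Its E9.5 mean was 5.04, and the other 4 probe sets, 1 of them called higher, had a median difference of 0.08. Sall1, of microglia, kidney and neural progenitors, fell by 1.02 ± 0.09 on both.

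HOX genes, which mark the body axis from the hindbrain back, were called in both directions, 12 higher (46.2%) and 5 lower (19.2%) of 26. The shares of all genes were 27.9% and 27%, and the median of the list was 0.19. Hoxb5 read 3.46, 3.46, 3.91 and 3.46 against 5.70 to 6.61 (median 6.28), a rise of 2.68 ± 0.14 (adjusted p = 2.4e-12), Hoxc4 rose by 1.90 ± 0.17 and Hoxd8 by 1.63 ± 0.11 on both probe sets. Hoxa7 fell by 0.96 ± 0.15. The brightest probe set of Hoxa5 fell by 1.15 ± 0.20, and the other one was 3.84 higher.

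Of 44 subunits of oxidative phosphorylation 29 rose and 8 fell, with a median of 0.52, and Sdhb, of complex II, rose by 1.21 ± 0.07. The complex IV genes Cox5b (1.39 ± 0.09) and Cox6b1 (-0.92 ± 0.08) each had 1 probe set against the call. Of 28 ribosomal protein genes 18 rose and 3 fell, with a median of 0.29, led by Rps15 (1.10 ± 0.07, both probe sets), with Rpl22l1, a paralogue of Rpl22, at -0.83 ± 0.07. Ribosome assembly genes had 16 rises (43.2%) and 9 falls (24.3%) among 37, against 27.9% and 27% of all genes, and a median of 0.10. They ranged from Imp3 (1.09 ± 0.08) to the helicase Ddx21 (-0.98 ± 0.09, both probe sets). Agreeing probe sets backed 0 of the rises and 6 of the falls, Nop10 (-0.96 ± 0.10), of the small nucleolar particles that modify ribosomal RNA, among them. Without sample 51, the lowest at E11.5 for 20 of the 37, there were 13 rises and 10 falls with a median of 0.05. Without sample 52 there were 12 and 10, with a median of 0.15.

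In glycolysis 9 of 21 rose (42.9%) and 7 fell (33.3%), against 27.9% and 27% of all genes, with a median of 0.18. Sample 51 was the lowest at E11.5 for 17 of the 21, and without it the counts were 9 and 7 and the median 0.08. Pfkp, a phosphofructokinase, rose by 1.64 ± 0.11 and the neuronal enolase Eno2 by 1.50 ± 0.13, and the lactate transporter Slc16a1 fell by 1.01 ± 0.10 on 1 of 2 probe sets. In cholesterol synthesis 10 of 19 fell and 2 rose, with a median of -0.30. Hsd17b7 (-1.30 ± 0.10) and Idi1 (-1.18 ± 0.10), of the late and early pathway, and Srebf2 (-1.12 ± 0.09), its transcription factor, were lower with agreeing probe sets, and the reductase gene Tm7sf2 was higher (1.01 ± 0.16).

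Of 22 imprinted genes 10 rose (45.5%) and 8 fell (36.4%), against 27.9% and 27% of all genes. Their median was 0.14 (0.08 without sample 36). Cdkn1c, described above, Igf2r (1.69 ± 0.12, both probe sets), a receptor that removes Igf2, the growth factor gene Igf2 itself (1.64 ± 0.12, 1 of 2) and Dlk1 (1.68 ± 0.16, 1 of 2) rose. Mest (-1.05 ± 0.21) and Peg10 (-0.83 ± 0.10) fell. Immediate early and stress genes gave 12 rises (41.4%) and 7 falls (24.1%) among 29, against 27.9% and 27% of all genes. Their median was 0.05 (0.01 without sample 52). The rises were led by Klf4 (3.12 ± 0.12, both probe sets), which epidermis and mesenchyme express, and Klf6 (1.56 ± 0.17). Hypoxia-responsive genes gave 9 rises (42.9%) and 6 falls (28.6%) among 21, with a median of 0.01 (0.11 without sample 51). They ranged from the collagen hydroxylase P4ha2 (1.19 ± 0.10) to Vegfa (-0.81 ± 0.13, both probe sets).

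Within E13.5 the B62 and B63 samples were compared with each other. Of 18193 genes 0 (0%) differed between them at an adjusted p under 0.05 in limma. An unadjusted p under 0.05 was found for 207, fewer than that threshold would give by chance. The spread came from all 16 arrays, and correlations were 0.989 to 0.993 within E11.5 but 0.996 to 0.998 within E13.5. With 3 samples per prefix and a spread shared with the other stages, the count of 0 does not show that the prefixes were alike. The median size of the difference was 0.06 between the prefixes and 0.30 between the stages. In the fit that takes the prefix as a random block the consensus correlation was 0.601. Each E11.5 and E9.5 array was a block of its own there, and the E13.5 arrays were closer to one another than the E11.5 arrays. The value therefore does not show by itself that samples of one prefix resembled each other. The medians of the sarcomere list were 1.96 for the B62 and 1.71 for the B63 samples against E11.5, those of the connective tissue list 1.69 and 1.54, and those of the erythroid list -0.55 and -0.37.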

How the data were processed

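RNA of embryo heads was measured on 16 arrays with 45101 probe sets. The deposited table holds linear intensity values. RMA is the method named for it in the submitters' processing notes. The values are whole numbers from 4 to 26979, with a median of 32 on each array. The sources used here do not give versions, background settings or scan batches, and the number of arrays limits the precision. All columns of sample values were used.

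Log2 of each deposited intensity was taken with no further normalization. Control probe sets (64), those naming several genes (932) and those naming none in the platform annotation used (9160) were left out; 34945 named 1 gene, 204 of them with an identifier not matched in the RefSeq table. The brightest probe set over the 16 arrays stood for each of 18193 genes, and 9010 genes had 2 or more. All 16 arrays were fitted with their stage as the group (with 4 groups, the prefixes apart, for B62 against B63) in limma 3.58.1 (R 4.3.3; lmFit and eBayes, Benjamini-Hochberg), at a threshold of 0.05. The procedure was tested on simulated data.

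Genes were named by rule: the 12 largest rises and falls with agreeing probe sets and arrays that do not overlap, up to 4 called members of each list along its median and 2 against it, the 5 widest opposed gaps, the 5 largest rises and falls with 1 probe set, and all globins. Names without a gene name of their own were skipped. Of the 263 genes the rule names the text gives 208; the 55 left out were dropped with their values known. Another 32 genes (such as Myf5, Tbr1, Sox2, Klf1 and Top2a) and the promoter motifs were chosen after values were seen. Members and lists were chosen with earlier results of these data known. Promoter windows came from RefSeq (GRCm38.p6), for 14452 of the genes.

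Alternatives were another normalization, an added intensity of 16, other probe sets, a filter on the dimmest 25%, the 10 arrays alone, a trended and robust variance, the title prefix as a block or alone, and leaving out each array.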

Additional observations from a re-analysis of the deposited data

Results flagged for a closer look

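In 28 of 480 groups of arrays (5.83%) the highest or lowest value for a named gene lay far from the others of its stage, where chance gives about 1 in 20. All values are log2 intensities.

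E11.5 sample 51 had 11 of the 28. It was the lowest for Bub1b (9.16), Hba-x (12.43), Kel (5.64), Kif11 (8.23), Sall4 (6.82), Snap25 (5.58), Sox2 (10.69) and Ucma (5.13). It was the highest for Col2a1 (10.04), Hoxb5 (3.91) and Sp7 (4.86). For Hba-x the other E11.5 arrays lay between 13.04 and 13.15, and for Sox2 between 11.02 and 11.06.

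The other E11.5 cases were spread over 3 arrays. Sample 33 was the highest for C1qa (5.21), Cnmd (3.91) and Neurod6 (3.00), sample 36 for Ddx21 (8.87) and Pisd-ps3 (8.10), and sample 52 was the lowest for Cryga (2.81) and Scx (3.00). For Cnmd, Neurod6, Cryga and Scx the other arrays shared a single whole-number intensity or nearly so, low on the scale.

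At E13.5, sample B62E7K was the lowest for Chl1 (8.26), Slc18a2 (4.58) and Sox2 (9.65) and the highest for Cspg4 (7.48) and Dlg4 (7.29). Sample B63E5K was the lowest for Myog (7.28), Rhag (2.58) and Sall4 (4.09) and the highest for Oc90 (6.88), and sample B62E6K was the highest for Ntm (8.07).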

How the results depend on the processing

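The choice of probe set moved the results most. With the mean of all probe sets 691 genes were at least 2-fold higher and 438 at least 2-fold lower. With the second-brightest, which only genes with 2 or more have, 2280 were higher, 2760 lower and 534 at least 2-fold higher. Of 5644 called genes 2388 (42.3%) then kept their call and 1027 were called the other way; of those at least 2-fold apart 617 of 1095 (56.3%) kept it. In the alternatives that kept the brightest probe set, 0 called genes were called the other way in limma, and all genes at least 2-fold apart that were present kept their call. The normalization alternatives, quantile normalization once more and median centring, could change little, because every array already had a lower quartile of 12 and a median of 32. Median centring returned the same counts, 5074 higher and 4906 lower. A random block by title prefix left 4072 higher and 3814 lower, and 7886 of 9980 calls (79%).

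Without 1 array, 4832 to 4913 genes were higher, 4660 to 4761 lower, 1024 to 1071 at least 2-fold higher and 674 to 711 at least 2-fold lower; with agreeing probe sets 987 to 1033 were higher and 1230 to 1307 lower. The count between B62 and B63 was 0 in each setting in which it was computed; it was not computed in the block by title prefix or with 1 prefix alone.

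Named genes turned sign only with other probe sets, and the cause was not tested. With the mean of all probe sets the values were -0.14 for Aurkb, -1.18 for Cryl1, 0.12 for Dlg4, 0.17 for Ednrb, 1.35 for Hoxa5, 1.32 for Map1b, 0.52 for Mybpc1 and 0.15 for Pitpnc1. With the second-brightest they were below 0 for Aldoc (-0.008), Aurkb (-0.57), Cryl1 (-7.03), Hand2 (-0.25), Klf6 (-0.072), Lhx9 (-0.24), Myl4 (-1.18), Scn3b (-0.40), Snap25 (-0.39) and Urod (-0.30). They were above 0 for Bub1b (0.27), Cox6b1 (0.46), Cux2 (1.11), Depp1 (0.44), Dlg4 (0.55), Ednrb (0.074), Grik3 (0.57), Hoxa5 (3.84), Kcna2 (0.70), Laptm5 (0.22), Map1b (4.58), Mybpc1 (1.50), Ncan (0.64), Pitpnc1 (0.43), Robo1 (0.010), Sox9 (0.47) and Ucma (0.31). List medians that turned with the second-brightest were muscle membrane (-0.02), monoamine (-0.28), oligodendrocyte (0.013), ribosome biogenesis (-0.22), pigment (-0.31), endothelial (-0.067) and hypoxia (-0.33). Oligodendrocyte also turned without the dimmest 25% of genes (0.010). The pigment median, 0.01, was -0.02 without sample 51 and -0.01 without B62E6K, B62E7K or B63E7K. That of hypoxia, 0.01, was -0.00 without B62E6K or B63E7K. With B63 alone at E13.5 they were -0.02 and -0.03. Of 4929 values of named genes over all settings 4806 kept direction and side of the threshold.

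No paired analysis was run, because the labels do not link any E13.5 sample to an E11.5 sample. Whole-number intensities are coarse for dim probe sets, and the number of arrays limits the precision.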
